A study of Mus musculus with 9 samples.

Results

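The sites described here are regions of open chromatin that were accessible in every group of mouse embryonic fibroblasts (MEFs) measured and that lie at the starts of non-coding transcripts but not of protein-coding ones. They were selected from ATAC-seq peak lists: peaks of the 4 lists on the 19 autosomes were merged, and a merged site was kept when every list had a peak in it, when it came within 1 kb of an annotated transcription start site (TSS), and when none of those TSSs belonged to a protein-coding transcript. This gave 3825 sites of 125387 merged autosomal sites, or of 57522 sites present in all 4 lists, which are called constitutive here. The other constitutive sites comprised 13806 at protein-coding starts and 39891 away from any annotated start. The share of all constitutive sites that fell in the non-coding class ranged from 5.38% to 8.08% over the autosomes.

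ATAC-seq marks open chromatin through the Tn5 transposase, which inserts sequencing adapters where DNA is exposed. The 4 groups were primary WT MEFs with 3 libraries, primary Anp32e null MEFs with 3, null cells given a control siRNA without a target (NT siRNA) with 1, and null cells given a pool of 4 siRNAs against H2A.Z with 2. Both siRNA groups thus also lack ANP32E. Cells were kept below passage 8. The libraries of each group had been pooled by the authors into 1 peak list, so no difference between lists has a replicate check and every interval below covers counting error only.

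The lists held 80433 (Anp32e null) to 105816 (H2A.Z siRNA) autosomal peaks, and their genome-wide background at a peak was 8.85 fragments in WT, 5.12 in Anp32e null, 3.88 in NT siRNA and 17.82 after H2A.Z siRNA. As a check of the label, the promoters of 9 of 10 fibroblast markers had a peak in every list, and the remaining one, Thy1, lacked one in WT. None of 4 leukocyte markers had a peak in any list, and of 3 pluripotency markers 1, Pou5f1, had one, in H2A.Z siRNA. Epithelial markers had a peak in every list at 3 of 4 promoters, endothelial markers at 2 of 3 and neuronal markers at both that are on autosomes, although an open promoter does not show that a gene is expressed.

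ANP32E is a histone chaperone that removes the variant histone H2A.Z from nucleosomes, and H2A.Z is common in the nucleosomes beside promoters and other open sites. Long non-coding RNAs are mostly transcribed by RNA polymerase II from promoters like those of coding genes, whereas several structural RNAs such as 7SK are made by RNA polymerase III. Annotation catalogues also list many transcripts without a coding sequence that come from coding genes, such as isoforms with a retained intron, and their starts can lie far inside the gene.

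Sequence windows of 201 bp centred on the WT summit give examples of such sites, chosen from well-known genes and not as typical of the class. One is given for the highest-ranked site that could be shown of each of 6 lists of well-known non-coding genes, on build GRCm38 (mm10), 5′ to 3′ on the strand of the transcript. Capitals mark matches, on either strand, to any of 9 short motifs that are named further on. Malat1, which makes an abundant RNA of nuclear speckles, is represented by chr19:5803679-5803879 on the minus strand, an intergenic window whose summit lay 1107 bp upstream of the nearest Malat1 start. The Snhg6 window, chr1:9943978-9944178 on the minus strand, covers an exon at the start of this host gene of small nucleolar RNAs. The Mir670hg window, chr2:94178805-94179005 on the minus strand, covers an exon of a microRNA host transcript. The Kcnq1ot1 window, chr7:143296554-143296754 on the minus strand, lies just upstream of the start of this imprinted antisense RNA, inside an intron. The Gm53 window, chr11:96260458-96260658 on the plus strand, lies in an intron near a HOX cluster. The Dubr window, chr16:50732589-50732789 on the minus strand, covers an exon at the start of a long intergenic RNA.
Malat1: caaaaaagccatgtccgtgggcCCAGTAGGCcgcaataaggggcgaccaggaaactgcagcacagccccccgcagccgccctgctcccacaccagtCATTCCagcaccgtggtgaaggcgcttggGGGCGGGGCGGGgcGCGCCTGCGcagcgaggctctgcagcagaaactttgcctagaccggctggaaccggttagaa
Snhg6: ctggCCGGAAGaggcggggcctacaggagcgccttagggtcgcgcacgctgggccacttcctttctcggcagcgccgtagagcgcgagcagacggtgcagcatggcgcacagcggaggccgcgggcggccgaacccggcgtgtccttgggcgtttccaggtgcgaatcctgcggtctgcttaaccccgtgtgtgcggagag
Mir670hg: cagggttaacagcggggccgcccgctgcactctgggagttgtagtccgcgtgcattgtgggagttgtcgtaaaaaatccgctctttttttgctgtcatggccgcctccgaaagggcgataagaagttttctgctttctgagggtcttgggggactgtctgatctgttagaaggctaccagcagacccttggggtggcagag
Kcnq1ot1: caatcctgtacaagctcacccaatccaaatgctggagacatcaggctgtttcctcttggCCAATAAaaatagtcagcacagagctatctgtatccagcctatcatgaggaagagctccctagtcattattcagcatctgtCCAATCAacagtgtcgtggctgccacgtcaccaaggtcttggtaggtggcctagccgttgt
Gm53: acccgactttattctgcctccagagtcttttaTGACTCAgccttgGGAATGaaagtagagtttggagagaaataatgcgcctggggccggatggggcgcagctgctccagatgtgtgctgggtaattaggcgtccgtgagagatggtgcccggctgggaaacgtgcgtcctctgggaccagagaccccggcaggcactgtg
Dubr: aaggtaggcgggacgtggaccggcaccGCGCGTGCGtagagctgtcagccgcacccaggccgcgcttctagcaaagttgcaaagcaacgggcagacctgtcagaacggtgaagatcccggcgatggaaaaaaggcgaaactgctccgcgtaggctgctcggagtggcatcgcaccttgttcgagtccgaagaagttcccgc

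The windows differed in base composition as well as in motifs. Snhg6 was GC-rich, with 69.7% GC, and its ratio of observed to expected CpG was 1.04. Every window but that of Kcnq1ot1 had 55.2% GC or more and a CpG ratio of 0.629 or more, above the class medians of 51.2% and 0.266. Kcnq1ot1 had 48.8% GC and a CpG ratio of 0.255, near the median of the whole class. Its capitals are both NF-Y letters, and Malat1 carried letters of SP1, TEAD, NRF1 and CTCF. The central 51 bases of each of the 6 windows occurred once on the autosomes.

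MicroRNA genes labelled 135 sites. Of the 131 distinct microRNA genes, 83 had a mature sequence in the RefSeq table of GRCm38.p6. The mature forms of the 4 named microRNA genes are shown with the seed, bases 2 to 8, in capitals, because the seed decides which messages a microRNA pairs with. miR-34a is known as a target of p53, miR-29a for repressing collagen messages, miR-196b for its place in a HOX cluster and miR-206 for its role in muscle.
miR-34a-5p: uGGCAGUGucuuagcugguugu
miR-29a-3p: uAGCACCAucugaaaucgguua
miR-196b-5p: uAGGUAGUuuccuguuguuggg
miR-206-3p: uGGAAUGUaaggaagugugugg
These 4 seeds differ from each other. The genomic positions of the printed arms are chr4:150068473-150068494 on the plus strand for miR-34a-5p, chr6:31062673-31062694 on the minus strand for miR-29a-3p, chr6:52230129-52230150 on the minus strand for miR-196b-5p and chr1:20679055-20679076 on the plus strand for miR-206-3p.

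Each site was labelled by the annotated non-coding TSS nearest to its strongest WT summit. The 3825 sites carried 29 transcript types and 3556 distinct genes, of which 3319 labelled a single site and 24 labelled 3 or more. The largest type was lincRNA, with 852 sites, followed by processed_transcript with 790, retained_intron with 712, antisense with 356 and processed_pseudogene with 321. TEC, a type for transcripts that await experimental evidence, held 264. Small RNA types were fewer, with 135 miRNA, 76 snRNA, 58 snoRNA, 44 misc_RNA and 13 rRNA sites. The 15 types with 10 or more sites held 3782 sites, and the other 14 types held 43, among them single sites of macro_lncRNA and sRNA.

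**Figure D1:**
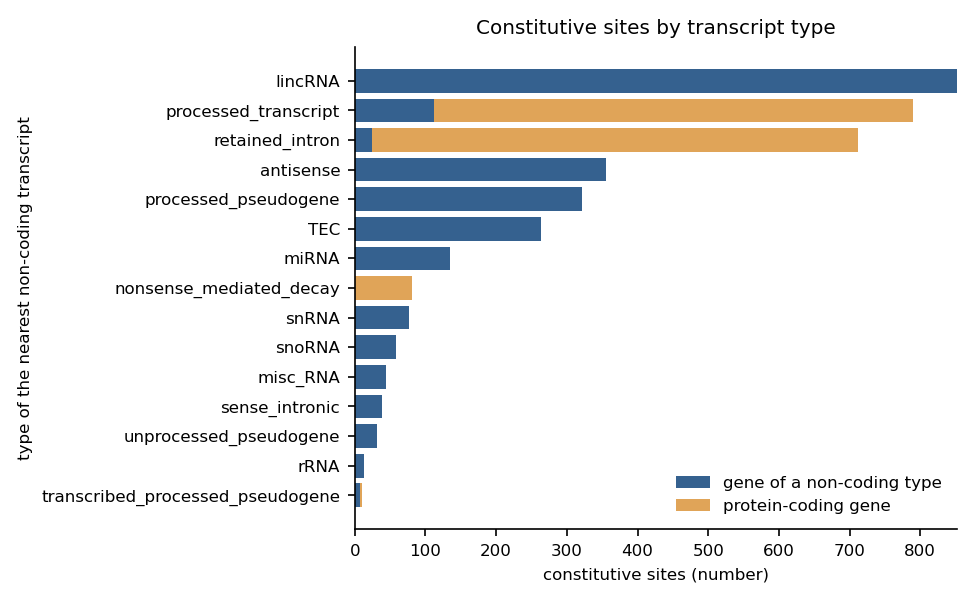
Number of constitutive sites by the type of the nearest non-coding transcript, for types with 10 or more sites. Bars are split by whether that transcript belongs to a gene of a non-coding type (blue) or to a protein-coding gene (orange), and processed_transcript and retained_intron, with 790 and 712 sites, are mostly orange.

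The word non-coding therefore covers unlike things. Of the 790 processed_transcript sites, 678 belonged to protein-coding genes, as did 688 of the 712 retained_intron sites and all 81 nonsense_mediated_decay sites. In all, 1448 sites were labelled by non-coding isoforms of coding genes, 1393 by long non-coding RNA genes, 385 by pseudogenes, 329 by small RNA genes, 264 by TEC and 6 by segments of T cell receptor genes. The 6 receptor segments entered because their annotated type is not protein_coding, although they are parts of coding loci. When sites at the start of any transcript of a protein-coding gene were dropped as well, 2331 sites were left.

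Being open in every list was less frequent at these starts than at coding ones. Of 8663 merged sites at non-coding starts only, 44.2% (95% Wilson interval 43.1% to 45.2%) had a peak in all 4 lists, and the value ran from 36.6% to 49.8% over the autosomes. At protein-coding starts the share was 79.7% (79.1% to 80.3%), and away from starts it was 40.1% (39.8% to 40.4%). The autosome ranges, 74.2% to 84.7% and 35.8% to 43.0%, did not overlap that of the non-coding class in the first case and overlapped it in the second. A further 1033 sites were present in 3 lists, 1402 in 2 and 2403 in 1.

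Strength was read in 2 ways, as the number of fragments piled up at the summit and as the percentile of the summit's fold enrichment among the autosomal peaks of the list. Since membership required a peak in each list, these values describe the class and are not tested. The median site had 64 summit fragments in WT, 56 in Anp32e null, 85 in NT siRNA and 341 after H2A.Z siRNA, and single sites ran from 19 to 773 in WT and from 35 to 3811 in H2A.Z siRNA. The median percentile was 58.0 in WT, 58.4 in Anp32e null, 62.7 in NT siRNA and 68.5 after H2A.Z siRNA. Percentiles rise with the number of weak peaks in a list, and with lists of equal length the last value was 60.4. The WT median lay below that of coding starts, 79.4, on 19 of 19 autosomes, and it lay above that of sites away from starts, 58.3, on 10 of 19. The median WT peak was 692 bp long, against 1160 bp at coding starts and 626 bp away from starts, and this order held on 19 of 19 autosomes.

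The weakest and the just-missed sites show where the rule fell. The 3 members with the lowest −log10 q in any list were labelled by the pseudogene Gm37232, by a processed_transcript of Baiap2l1 and by the snoRNA gene Gm22354. Gm37232 had 19 summit fragments in WT, 17 in Anp32e null, 17 in NT siRNA and 51 after H2A.Z siRNA. Among sites present in exactly 3 lists, the highest-ranked was labelled by the pseudogene Gm1972, with 79 fragments in Anp32e null, 79 in NT siRNA and 412 after H2A.Z siRNA and no peak in WT. The next, a retained_intron of Wasl and the receptor segment Trav13-2, lacked a peak in NT siRNA. Of the 1033 sites in 3 lists, 471 lacked a WT peak and 46 an H2A.Z siRNA peak. Just inside the 1 kb limit, 396 members had a median mean percentile of 53.5, and just beyond it 590 sites away from starts had 53.1. The 1968 members that covered a TSS had 64.4.

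How close the summit lay to the start depended on the kind of transcript. Over the class the median distance was 485 bp, and 17.3% (16.1% to 18.5%) of summits lay within 100 bp of the start, 33.8% (32.3% to 35.3%) within 250 bp and 77.3% within 1000 bp. Among the groups with more than 6 sites, those of long non-coding RNA genes were closest, with a median of 328 bp and 24.6% (22.4% to 27.0%) within 100 bp. Isoforms of coding genes had a median of 527.5 bp and 14.1% (12.4% to 16.0%) within 100 bp, small RNAs 619 bp and 13.4% (10.1% to 17.5%), TEC 653 bp and 11.7% (8.40% to 16.2%), and pseudogenes 695 bp and 9.09% (6.61% to 12.4%). The interval of the long non-coding RNA genes did not overlap those of these 4 groups. The 6 receptor segments had a median of 22 bp.

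**Figure D2:**
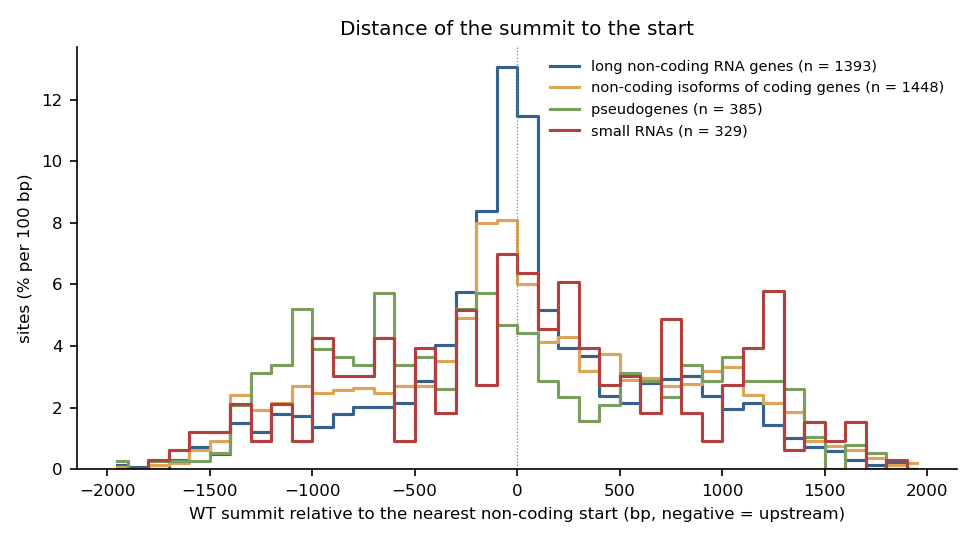
Share of sites per 100 bp by the signed distance of the WT summit from the nearest non-coding start, for 4 groups of transcripts. The long non-coding RNA genes peak in the 100 bp on either side of the start, whereas pseudogenes and small RNAs are spread over the window.

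Among the 1291 sites with a summit within 250 bp, 57.2% (54.5% to 59.9%) lay upstream of the start. The share was 56.7% (52.7% to 60.6%) for long non-coding RNA genes and 61.0% (56.4% to 65.4%) for isoforms of coding genes, and 48.9% (38.8% to 59.0%) for small RNAs. The nearest protein-coding TSS was at a median of 19579 bp over the class, of 12077 bp for isoforms of coding genes and of 31220 bp for long non-coding RNA genes. Of all sites, 15.7% lay within 5 kb of a protein-coding TSS and 24.8% beyond 50 kb.

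By the annotation at the summit, 1058 sites (27.7%) lay in an exon of some transcript, 2147 (56.1%) lay within the body of a protein-coding gene and 809 (21.2%) were outside any gene. Isoforms of coding genes lay within a coding gene at 1404 of 1448 sites and long non-coding RNA genes at 368 of 1393. The 4 summits of a site fell within 100 bp of each other at 62.3% (60.8% to 63.9%) of the sites, against 55.3% (54.4% to 56.1%) at coding starts and 67.4% (66.9% to 67.8%) away from starts. Each list had exactly 1 peak at 92.6% of the sites.

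Base composition placed the class between the other constitutive sites. The median GC content of the 201 bp window was 51.2%, with 64.2% at coding starts and 47.3% away from starts, and the class lay between them on 19 of 19 autosomes. The median ratio of observed to expected CpG was 0.266, close to the 0.196 of sites away from starts and below the 0.794 of coding starts. Composition changed with the distance of the summit from the start. Sites with a summit within 100 bp had a median GC of 54.2% and a CpG ratio of 0.394, and those beyond 1000 bp had 49.3% and 0.203.

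The motif counts followed the same order. The letters searched, on both strands, were TGANTCA for AP-1, a dimer of FOS and JUN proteins common at fibroblast enhancers, GGGCGGG for SP1, a factor of GC-rich promoters, CCAATNA for NF-Y, GGAATG for TEAD, TGTGGTT for RUNX, CCGGAAG for ETS factors, GCGCNTGCG for NRF1, CNAGNNGGC for part of the CTCF site, and TATAAA for the TATA box. Matches of different motifs may share bases, and a match is not a bound site. AP-1 letters occurred at 28.0% (26.6% to 29.4%) of the class, against 6.48% at coding starts, 37.7% away from starts and 29.6% of all constitutive sites. SP1 letters occurred at 6.20%, against 25.4%, 2.17% and 8.02%. ETS letters occurred at 2.38% (1.94% to 2.91%), against 10.4%, 1.12% and 3.42%. For each of these motifs the class lay between the other classes.

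Near the start, promoter letters were more frequent and AP-1 letters less so. With a summit within 100 bp, 65 of 661 sites had SP1 letters (9.83%, 7.79% to 12.3%) and 36 had ETS letters (5.45%, 3.96% to 7.45%). Beyond 1000 bp, 29 of 870 had SP1 letters (3.33%, 2.33% to 4.75%) and 9 had ETS letters (1.03%, 0.545% to 1.95%). AP-1 letters were found at 22.8% (19.8% to 26.2%) of the nearest sites and at 37.0% (33.9% to 40.3%) of the farthest. The farthest sites thus had AP-1 letters about as often as sites away from starts, and even the nearest fell well short of coding starts in SP1 and ETS letters. NRF1 letters, at 2.27% and 0.345%, followed SP1, and TATA letters, at 4.84% and 8.39%, followed AP-1.

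**Figure D3:**
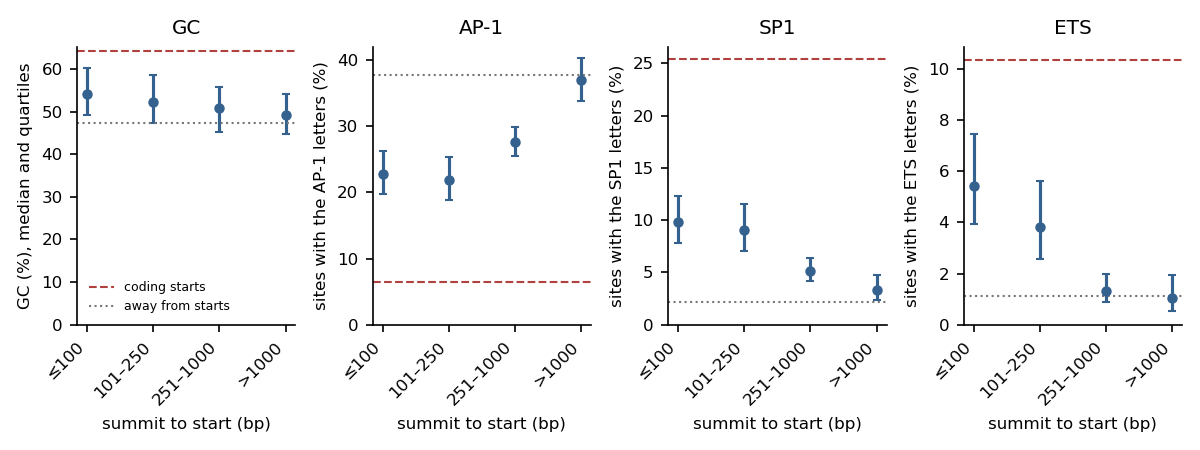
GC content (median, bars to the quartiles) and the share of sites with AP-1, SP1 or ETS letters (bars, 95% Wilson interval) in 201 bp windows, by the distance of the WT summit from the nearest non-coding start. Dashed and dotted lines give coding starts and sites away from starts, and AP-1 climbs from 22.8% to 37.0% while SP1 drops from 9.83% to 3.33%.

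CTCF letters occurred at 16.6% of the class, 22.9% of coding starts, 13.6% of sites away from starts and 16.0% of all constitutive sites. In the same order, TEAD letters occurred at 19.6%, 8.53%, 24.3% and 20.2%, RUNX letters at 7.40%, 2.27%, 8.90% and 7.21%, and TATA letters at 7.56%, 2.88%, 10.8% and 8.71%, so these were rarest at coding starts. NRF1 letters, at 1.12%, 6.84%, 0.291% and 1.92%, were most frequent there. NF-Y letters, at 8.29% (7.46% to 9.20%), 10.7%, 8.49% and 9.02%, were rarer in the class than at coding starts and about as frequent as away from starts. By kind of transcript, AP-1 letters were found at 34.3% of pseudogene sites and at 24.6% of sites of long non-coding RNA genes.

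A few sites lay in repeated sequence, where fragments of near-identical copies cannot be assigned with certainty. The central 51 bases occurred more than once on the autosomes at 30 sites (0.784%, 0.550% to 1.12%), against 0.456% of coding starts and 0.361% of sites away from starts. Pseudogenes held 13 of the 30. These 30 sites had a median WT percentile of 76.9, against 58.0 for the others. The highest-ranked lincRNA site, at Gm5784, occurred in 2 copies and the highest-ranked processed_transcript site, at Gm48693, in 5, so their levels are uncertain.

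The highest-ranked site of each type often belonged to a gene known only by a catalogue name. Gm49708, a retained_intron on chr16:90349242-90350276, had 304 summit fragments in WT, 302 in Anp32e null, 306 in NT siRNA and 1082 after H2A.Z siRNA, and it stood near the top of every list. The processed pseudogene Gm29741 had 379, 287, 403 and 1430 fragments in the same order, with the WT summit 1191 bp upstream of the annotated start. Mir206, on chr1:20677987-20678328, had 220, 248, 307 and 964 fragments with the summit 803 bp upstream of the microRNA. Rnu3b1, a gene for the U3 small nucleolar RNA that acts in ribosomal RNA processing, had 307, 244, 1012 and 3395. The TEC gene Gm38049 had 330, 391, 528 and 1471. All 5 ranked far above the class medians in every list. The other types with 10 or more sites were led by Vaultrc5 (misc_RNA), Bcas1os2 (antisense), Slc30a6 (nonsense_mediated_decay), B230216N24Rik (sense_intronic), Gm25890 (snRNA), Gm22385 (rRNA), Gm15981 (transcribed_processed_pseudogene) and Gm11382 (unprocessed_pseudogene, 2 copies). Bcas1os2 had the most WT fragments of these, 403, and Slc30a6, a zinc transporter gene, the fewest, 132.

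Fragments were compared between lists as log2 ratios of summit pileups, each centred on the median of the 57522 constitutive sites of all classes, so that a value of 0 means the change of the typical open site. A site was counted as higher or lower when it was past 1.5-fold. The scale between lists is not fixed by the data: scaled by genome-wide background without centring, the median of all constitutive sites was 0.62 for Anp32e null against WT, −0.25 for H2A.Z siRNA against NT siRNA and 0.86 for NT siRNA against Anp32e null. All directions below are relative to that median. The first and last comparisons share the Anp32e null list, and the last 2 share the NT siRNA list. Since sites absent from a list are not members, large losses and large gains are both under-represented.

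Between Anp32e null and WT, the class differed about as open sites at large did. The median centred log2 ratio of Anp32e null against WT was −0.02, with quartiles of −0.32 and 0.25. Of the 3825 sites, 263 were higher (6.88%, 6.12% to 7.72%) and 399 lower (10.4%, 9.50% to 11.4%), where 6.82% and 9.68% of all constitutive sites were. Coding starts had fewer sites past 1.5-fold, 2.35% higher and 4.97% lower, and the class exceeded them on 19 of 19 autosomes in both directions. Coding starts also have more fragments, with a WT median of 137 against 64, so their ratios carry less counting error. Sites away from starts had 8.36% and 11.2%, and the class had more of the former on 3 of 19 autosomes. A share near the background is no result about the class. The balance of higher and lower depended on the measure and scale, with 240 higher and 144 lower by fold enrichment, 1955 and 32 when scaled by genome-wide background, and 127 and 680 when centred on the strongest 1000 sites.

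Whole chromosomes differed in this comparison. The median ratio of the class ran from −0.23 on chromosome 14 to 0.25 on chromosome 18, and the share of sites that were higher ran from 0.990% to 18.0%. Medians of coding starts ran from −0.19 to 0.28 and those of sites away from starts from −0.22 to 0.20, so all classes of a chromosome moved together. With ratios centred within each autosome, a choice made after seeing the data, 220 sites of the class were higher (5.75%) and 384 lower, near the 5.61% and 9.25% of all constitutive sites. What set the chromosomes apart was not tested.

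In the null cells, H2A.Z siRNA against NT siRNA gave shares close to the background too. The median ratio of H2A.Z siRNA against NT siRNA was −0.00, with 313 sites higher (8.18%, 7.36% to 9.09%) and 267 lower (6.98%, 6.22% to 7.83%), where 8.06% and 7.03% of all constitutive sites were. Scaled by genome-wide background the counts were 118 and 707, and centred on the strongest 1000 sites 590 and 126. Coding starts had 1.89% and 4.14%, and sites away from starts 10.2% and 8.04%. The split within the class followed the distance of the summit. With a summit within 100 bp, 5.45% (3.96% to 7.45%) were higher and 9.08% (7.12% to 11.5%) lower. With a summit farther than 100 and up to 250 bp away the shares were 6.67% and 6.03%. Beyond 1000 bp, 9.31% (7.55% to 11.4%) were higher and 5.52% (4.19% to 7.24%) lower. With the main centring, lower sites outnumbered higher ones within 100 bp of the start, as at coding starts, and did not in the bins farther out. The intervals of the higher and lower shares within 100 bp overlapped, and the bins were not recomputed on the other scales.

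The null cells with NT siRNA and without it differed more than either pair above. For NT siRNA against Anp32e null, 959 sites of the class were higher (25.1%) and 762 lower (19.9%), where 23.1% and 21.8% of all constitutive sites were, and the median was 0.07. Scaled by genome-wide background the counts were 2548 and 78, and centred on the strongest 1000 sites 1304 and 456. Coding starts had 33.0% higher and 12.5% lower, and sites away from starts 19.5% and 25.2%. The class median lay below that of coding starts on 18 of 19 autosomes and above that of sites away from starts on 18 of 19. Isoforms of coding genes had 28.7% (26.5% to 31.1%) higher and 17.3% (15.4% to 19.3%) lower, and pseudogenes had 15.3% (12.1% to 19.3%) higher and 29.9% (25.5% to 34.6%) lower. The NT siRNA list rests on 1 library, so transfection and the library cannot be told apart here.

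Within the class, GC content went with this difference. Of the 816 sites with a window GC below 45%, 12.4% were higher in NT siRNA than in Anp32e null and 245 were lower. Of the 1191 sites with a GC above 55%, 429 (36.0%) were higher and 161 were lower. Of all constitutive sites of any GC, 23.1% were higher and 21.8% lower. In H2A.Z siRNA against NT siRNA the order of the higher shares was the opposite. They were 12.5%, 9.24% and 3.61% from the GC-poor to the GC-rich bin, beside 8.06% of all constitutive sites. In Anp32e null against WT the shares did not follow the order of GC. From GC-poor to GC-rich, 6.37%, 8.86% and 4.20% were higher, beside 6.82% of all constitutive sites. In the same bins 13.5%, 9.46% and 9.82% were lower, beside 9.68%. Shares by GC were not computed over all constitutive sites, so whether these patterns are particular to the class was not tested. The part of GC content in the ratios was not tested.

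**Figure D4:**
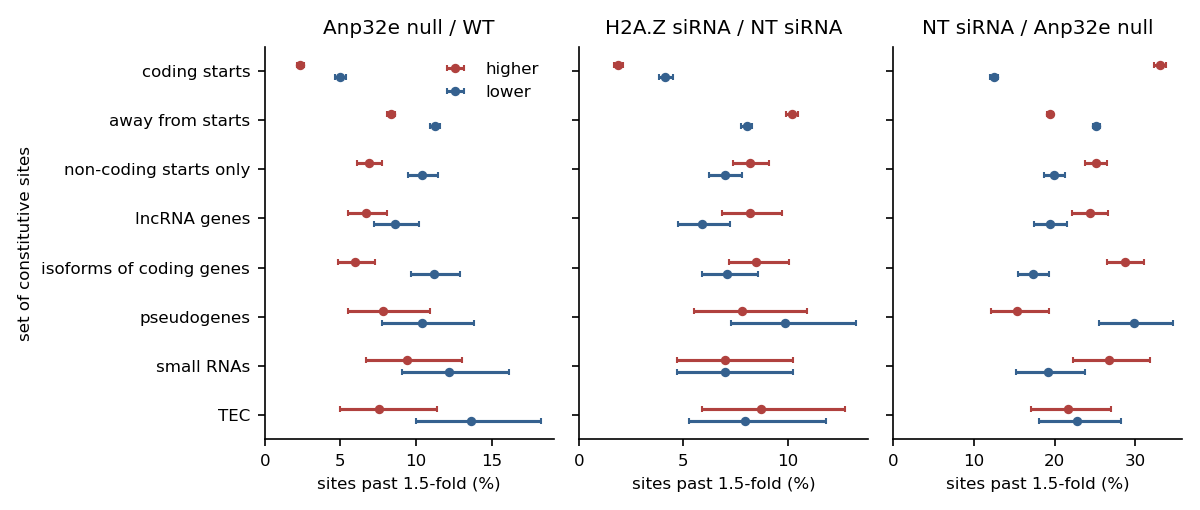
Share of constitutive sites higher (red) or lower (blue) past 1.5-fold after centring, for 3 comparisons between peak lists, with 95% Wilson intervals that cover counting error only. The first 3 lines are the classes of constitutive sites and the rest are kinds of non-coding start, and in Anp32e null against WT the non-coding class has 6.88% higher and 10.4% lower.

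Across sites, the ratios of the 2 comparisons that share no list were weakly related. Spearman's rho between Anp32e null against WT and H2A.Z siRNA against NT siRNA was 0.11 over the 3825 sites and ran from −0.02 to 0.26 over the autosomes, and it was 0.09 over all 57522. Sites share their libraries and base composition, so this is a description. Of the 263 sites higher in Anp32e null, 30 were also higher (11.4%) and 15 lower (5.70%) in H2A.Z siRNA against NT siRNA, beside 489 (12.5%) and 255 of the 3923 such sites among all constitutive sites. Of the 399 lower in Anp32e null, 25 were higher (6.27%) and 55 lower (13.8%), beside 7.20% and 14.6% of 5571. These shares are near the background. In all, 2708 of 3825 sites stayed within 1.5-fold in both comparisons. The same count was not made over all constitutive sites, so it is no result about the class.

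The site with the highest ratio of Anp32e null to WT was labelled by a retained_intron transcript of Nav3, a regulator of microtubules, (ENSMUSG00000020181.16), on chr10:109903304-109904426. It had 68 summit fragments in WT, 264 in Anp32e null, 157 in NT siRNA and 867 with siRNA to H2A.Z. The Anp32e null value was the highest of the first 3. The centred ratio of null against WT was 4.37-fold, or 2.13 on the log2 scale (95% exact interval 1.74 to 2.53). The WT summit lay 30 bp from the start of the isoform and 96226 bp from the nearest protein-coding TSS.

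The next 4 were the receptor segment Trbj2-4, the snoRNA gene Gm25116, a nonsense_mediated_decay isoform of Rasa4 and a processed_transcript of Ccdc162. Trbj2-4 had 24 fragments in WT and 66 in Anp32e null, Gm25116 35 and 85, Rasa4, which encodes a RAS inhibitor, 46 and 108, and Ccdc162 24 and 54. Their log2 ratios were 1.63, 1.45, 1.40 and 1.34, and each interval stayed above 0.58, the log2 of 1.5-fold. In NT siRNA, also null for Anp32e, Trbj2-4 had 40 fragments, Gm25116 had 89, Rasa4 had 135 and Ccdc162 had 23. The NT siRNA against Anp32e null ratios were −1.18, −0.39, −0.14 and −1.69, so Trbj2-4 and Ccdc162 were lower past 1.5-fold and the other two were not.

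The 5 lowest sites in Anp32e null were labelled by processed_transcript isoforms of Ift43, Phactr1 and Uri1, the snRNA gene Gm22756 and the rRNA gene Gm23782. Ift43, a component of the transport machinery of cilia, had 155 summit fragments in WT, 38 in Anp32e null, 70 in NT siRNA and 152 with siRNA to H2A.Z. The ratio of null against WT was −1.86 (−2.41 to −1.34) and that of H2A.Z siRNA against NT siRNA −0.83 (−1.24 to −0.40). Phactr1, a binder of actin and of a protein phosphatase, had 131, 38, 53 and 183 fragments and a null against WT ratio of −1.62 (−2.18 to −1.08). Uri1 had 112, 33, 21 and 78, Gm22756 had 96, 29, 25 and 47, and Gm23782 had 74, 23, 29 and 104. All 5 summits had a GC content of 40.8% to 48.8%, below the class median, and lay 266 to 1174 bp from the labelling start.

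After H2A.Z siRNA the 5 highest sites were at Stk17b, Yeats2, Gm10445, Rab3gap2 and Tnpo1. Stk17b, which encodes an apoptosis-related kinase, had 59 summit fragments in WT, 81 in Anp32e null, 32 in NT siRNA and 365 after H2A.Z siRNA. Its ratio of H2A.Z siRNA against NT siRNA was 1.57 (1.04 to 2.14), while NT siRNA against Anp32e null was −1.80 (−2.44 to −1.19), so the NT siRNA value was the low one. Yeats2 went from 29 fragments in NT siRNA to 292, Gm10445 from 23 to 226, Rab3gap2 from 26 to 255 and Tnpo1, a nuclear import receptor, from 40 to 390, where the typical open site had 3.85 times as many fragments in H2A.Z siRNA. Of these 5, 4 were retained_intron isoforms of coding genes and 1, Gm10445, was a lincRNA.

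The 5 lowest were at Cped1, Gm44235, Srfbp1, Myo7a and Max. Cped1 had 30 summit fragments in WT, 28 in Anp32e null, 35 in NT siRNA and 45 after H2A.Z siRNA, and its H2A.Z siRNA against NT siRNA ratio was −1.58 (−2.25 to −0.90). Gm44235, a TEC gene, went from 33 in WT to 69 in Anp32e null and from 85 in NT siRNA to 122 in H2A.Z siRNA, so its centred ratios were 1.23 (0.62 to 1.88) and −1.42 (−1.84 to −1.01). Srfbp1 had 61 in NT siRNA and 92 after H2A.Z siRNA. Myo7a, an unconventional myosin gene, had 72 and 109, and Max, which encodes the partner of MYC, had 85 and 131. The last 2 were also higher in NT siRNA than in Anp32e null, by 1.25 and 1.04 on the log2 scale. All of these sites were singled out for their values, so the values carry no test.

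Among well-known non-coding genes, 43 of 116 entries on 7 lists labelled 52 sites of the class, with Snhg14 entered on 2 lists. Another 22 had a constitutive site that was also within 1 kb of a protein-coding start, among them Gas5, Snhg1, Rmrp, Rpph1, Hottip and Tug1. A further 7 had a member labelled by a nearer start, 10 had peaks in fewer than 4 lists, 22 had no peak and 12 names matched no autosomal gene of the annotation used. Neat1, Meg3 and H19 were among the 10, with peaks in 3, 3 and 2 lists at most, and Hotair, Mir21a and Rian had no peak within 1 kb. Of the 52 sites, 3 were higher and 3 lower in Anp32e null against WT, 3 were higher and 2 lower in H2A.Z siRNA against NT siRNA, and 18 were higher and 10 lower in NT siRNA against Anp32e null. Of all constitutive sites, 6.82% and 9.68%, 8.06% and 7.03%, and 23.1% and 21.8% were past these limits. The medians of the 3 comparisons were 0.08, 0.04 and 0.32, beside −0.02, −0.00 and 0.07 over the class.

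Of Malat1 and Neat1, the 2 listed long RNAs of nuclear bodies, Malat1 labelled a site of the class. The site (ENSMUSG00000092341.3), chr19:5802026-5804120, had 79 summit fragments in WT, 86 in Anp32e null, 396 in NT siRNA and 1470 after H2A.Z siRNA. Between WT and null the log2 ratio was 0.29 (−0.17 to 0.75), and between the siRNA groups it was −0.05 (−0.21 to 0.11). It was 1.74 (1.40 to 2.10) higher in NT siRNA than in Anp32e null. On that chromosome the class median for this comparison was 0.34 and that of coding starts 0.75.

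Host genes of small nucleolar RNAs, whose introns carry the guides of ribosomal RNA modification, labelled 8 sites. None of the 8 was past 1.5-fold in Anp32e null against WT or in H2A.Z siRNA against NT siRNA, where 6.82% higher and 9.68% lower, and 8.06% and 7.03%, were the shares of all constitutive sites, so a count of 0 among 8 is near the background. Snhg5 had 319 summit fragments in WT, 309 in Anp32e null, 321 in NT siRNA and 1286 after H2A.Z siRNA, with ratios of 0.12 (−0.11 to 0.35) and 0.06 (−0.12 to 0.24). Snhg8 had 387, 373, 407 and 1571 fragments, and its ratios were 0.12 (−0.09 to 0.33) and 0.00 (−0.16 to 0.16). The Snhg6 site printed above had 197, 187, 325 and 1097. Snhg20 was the lowest of the 8 in null against WT, with 71 fragments in WT and 45 in Anp32e null and a ratio of −0.49 (−1.06 to 0.07). Summits of 6 of the 8 lay within 100 bp of the start, and the window GC of the 8 ranged from 50.2% to 69.7%.

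Transcripts that host or encode microRNAs labelled 13 sites. Dnm3os, a microRNA host known in mesenchymal cells, had 228 summit fragments in WT, 255 in Anp32e null, 521 in NT siRNA and 2279 after H2A.Z siRNA. Mir22hg had 227, 169, 642 and 2422. Mir155hg had 156, 163, 91 and 542, so that its H2A.Z siRNA against NT siRNA ratio was 0.63 (0.31 to 0.97) and its NT siRNA against Anp32e null ratio −1.30 (−1.69 to −0.92). One of the 2 Mir99ahg sites, at chr16:77328940-77330133, had 99, 61, 34 and 82 fragments and had ratios below 0 in each comparison, at −0.53 (−1.01 to −0.05) for null against WT, −0.68 (−1.27 to −0.05) for the siRNA pair and −1.30 (−1.95 to −0.68) for NT siRNA against null. None of the 13 was past 1.5-fold in Anp32e null against WT, where 6.82% of all constitutive sites were higher and 9.68% lower, and so few sites allow no reading of that count. Mir17hg, host of a cluster of growth-promoting microRNAs, had a WT summit 2061 bp upstream of its start in a window of 75.6% GC.

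Beside Mir206, the microRNA genes whose mature forms are printed above had the following levels. Mir34a had 70 summit fragments in WT, 65 in Anp32e null, 134 in NT siRNA and 518 after H2A.Z siRNA, Mir29a had 121, 100, 212 and 877, and Mir196b had 47, 51, 84 and 434. Their null against WT ratios, 0.06, −0.11 and 0.29, all had intervals that held 0. Mir196b ranked at the 0.0183 percentile of fold in WT despite its 47 fragments. The fold is taken over the local background, so a percentile of fold measures contrast with the surroundings rather than the number of fragments.

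Imprinted non-coding RNAs, expressed from the chromosome of one parent, labelled 6 sites. The Kcnq1ot1 site (ENSMUSG00000101609.2), chr7:143295357-143297002, had 191 summit fragments in WT, 90 in Anp32e null, 168 in NT siRNA and 517 with siRNA to H2A.Z. The null against WT ratio was −0.92 (−1.29 to −0.55), 1.89-fold lower, and −0.83 within its chromosome. NT siRNA was higher than Anp32e null, at 0.44 (0.06 to 0.83). Airn, the antisense RNA of the Igf2r locus, labelled 3 sites. One of the 2 intronic ones, at chr17:12816284-12817288, had 45, 59, 49 and 449 fragments, and its H2A.Z siRNA against NT siRNA ratio was 1.25 (0.82 to 1.71). The one at the Airn start, with the summit 18 bp from it, had 123, 129, 214 and 733 and a ratio of −0.17 (−0.39 to 0.06). The other intronic one, at chr17:12742209-12742820, had 54, 73, 72 and 315 fragments. Its null against WT ratio of 0.60 (0.08 to 1.14) was the one among the 6 sites that was higher past 1.5-fold. Of all constitutive sites, 6.82% were higher and 9.68% lower. Within its chromosome the ratio of this Airn site was 0.41, not past 1.5-fold, and the site ranked at the 5.98 percentile of fold in WT. Peg13 had 196, 219, 238 and 937, and Nespas 160, 169, 139 and 680.

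Non-coding RNAs of the HOX clusters labelled 5 sites, at Gm15050, Gm53, Hoxd3os1, Haglr and Hoxa11os. These lie among the genes that set position along the body. Gm53 had 29 summit fragments in WT, 43 in Anp32e null, 115 in NT siRNA and 365 after H2A.Z siRNA, and a null against WT ratio of 0.74 (0.03 to 1.47). Hoxd3os1 had 80, 103, 144 and 422, Gm15050 93, 90, 124 and 358, and Hoxa11os 49, 47, 113 and 311. In H2A.Z siRNA against NT siRNA none of the 5 was past 1.5-fold, where 8.06% of all constitutive sites were higher and 7.03% lower. The ratios of Hoxd3os1, Gm15050 and Hoxa11os were −0.39, −0.42 and −0.49 with intervals below 0, and that of Haglr was 0.47 (−0.18 to 1.18). Hoxa11os rose little above its local background, with a fold of 1.80 in WT and 1.34 after H2A.Z siRNA.

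Small structural RNA genes labelled 8 sites and ranged widely in strength. Vaultrc5, a vault RNA gene, had 372 summit fragments in WT, 429 in Anp32e null, 529 in NT siRNA and 1542 after H2A.Z siRNA. Rn7sk, the 7SK RNA that restrains transcription elongation, had 156, 139, 196 and 679, with a null against WT ratio of 0.00 (−0.34 to 0.34). Its summit lay 4 bp upstream of the start. Terc, the RNA of telomerase, had 67, 56, 125 and 512. The Y RNA genes Rny1 and Rny3 had 87, 75, 141 and 635, and 43, 23, 59 and 263, and Rny3 was the one of the 8 past 1.5-fold in null against WT, at −0.73 (−1.53 to 0.03), where 9.68% of all constitutive sites were lower and 6.82% higher. Of the 8, 5 were higher in NT siRNA than in Anp32e null, where 23.1% of all constitutive sites were.

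Long non-coding RNAs tied to growth, p53 or nearby genes labelled 11 sites. Pvt1 (ENSMUSG00000097039.8), next to Myc, had 35 summit fragments in WT, 66 in Anp32e null, 104 in NT siRNA and 625 after H2A.Z siRNA on chr15:62222312-62223667. Both ratios were higher than the typical site, 1.09 (0.47 to 1.72) for null against WT and 0.64 (0.34 to 0.96) for H2A.Z siRNA against NT siRNA. Trp53cor1, a p53 target beside Cdkn1a, had 59, 32, 165 and 706, with a null against WT ratio of −0.71 (−1.38 to −0.07) and an NT siRNA against null ratio of 1.91 (1.35 to 2.50). Dubr had 266, 347, 304 and 1175. Rmst had 89, 57, 49 and 113, and its H2A.Z siRNA ratio was −0.74 (−1.24 to −0.23). Lncpint labelled 4 sites with WT fragments of 69 to 171, and none of them was past 1.5-fold in Anp32e null against WT or H2A.Z siRNA against NT siRNA, while 3 of the 4 were higher in NT siRNA than in Anp32e null, by 0.63, 1.03 and 1.09. Of all constitutive sites, 6.82% and 9.68%, 8.06% and 7.03%, and 23.1% and 21.8% were higher and lower in these comparisons. 2900097C17Rik, the mouse Norad gene, had 36, 29, 100 and 344.

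**Figure D5:**
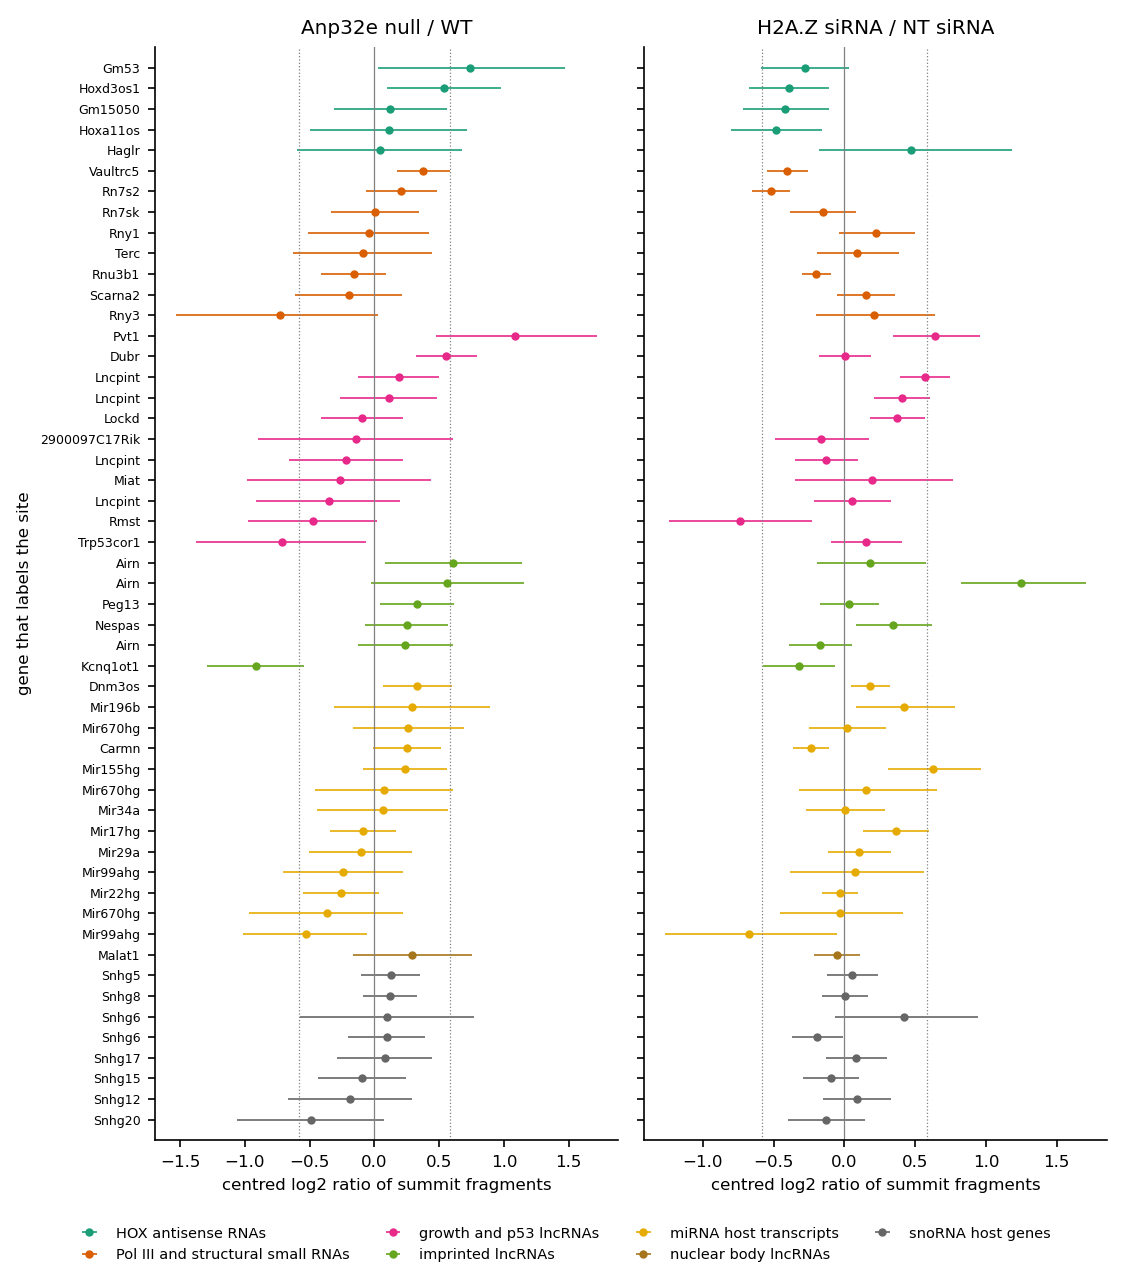
Centred log2 ratios of summit fragments at the 52 sites labelled by listed non-coding genes, coloured by list, for Anp32e null against WT and H2A.Z siRNA against NT siRNA. Points are ratios, bars exact 95% counting intervals and dotted lines 1.5-fold, and Pvt1 and Kcnq1ot1, at 1.09 and −0.92, lie farthest from 0 in the first panel.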

How the data were processed

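The authors aligned paired-end ATAC-seq reads to mm10 with Bowtie2, used Picard to remove duplicates, and ran MACS2 on the pooled libraries of each group. The deposited lists give, per peak, a fold enrichment (a ratio to local background), −log10 p-value and q-value scores, and the summit's offset in bp.

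The fold and p-value together fix the summit's fragment pileup, which was solved for and tested on simulated data. Solutions lay within 0.05 of a whole number. Peaks were merged when they overlapped or touched (checked with bedtools 2.31.1) and annotated with GENCODE M21 TSSs (1 kb on either side). The pooled lists hold no separate counts per library, so no test was made. Ratios carry exact binomial (Clopper-Pearson) and shares Wilson 95% intervals, for counting error only.

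Members and gene lists were chosen with earlier results of these data known. Named sites are those labelled by listed genes, the highest-ranked of types with 10 or more sites, the 5 highest and 5 lowest ratios with 20 or more fragments in both lists, and the weakest and just-missed sites. The sequence of one named site is not reported here. Alternatives are given in the closing section. Python 3.11.15, NumPy 2.4.6, pandas 2.3.3, SciPy 1.17.1 and matplotlib 3.10.9 were used.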

Additional observations from a re-analysis of the deposited data

Results flagged for a closer look

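Sites on the X chromosome were outside the rule and enter no comparison. By the same merging and annotation, 64 constitutive sites there lay at non-coding starts only, of 1481 constitutive sites on the X chromosome, and 12 of the 64 were labelled by a lincRNA. No value of any single site was used.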

How the results depend on the processing

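Of 166 recomputed values, 128 stayed near the main value and 38 did not. Leaving out each replicate was not possible because libraries had been pooled into 1 list per group. No paired analysis was possible because the lists carry no replicate numbers. Dropping repeated sequence, merging across one nucleosome length, keeping sites with exactly 1 peak per list, and centring within autosomes moved none. By gene type, 2331 sites remained, with median percentiles of 62.8 (WT) and 61.8 (Anp32e null), 19.1% of summits within 100 bp, and higher and lower counts of 170 and 234 (Anp32e null against WT), 189 and 160 (H2A.Z siRNA against NT siRNA) and 528 and 505 (NT siRNA against Anp32e null). Fewer sites make those counts smaller.

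In the same order, scaling by genome-wide background gave medians of 0.60, −0.25 and 0.93, with 1955 higher and 32 lower, 118 and 707, and 2548 and 78. Centring on the strongest 1000 sites gave −0.18, 0.17 and 0.29, with 127 and 680, 590 and 126, and 456 lower in the last. Fold enrichment in place of pileups gave 240 higher and 144 lower, the opposite balance, then 145 and 139, then 542 and 225. A 500 bp window put 44.1% of summits within 250 bp and 22.5% within 100 bp, and AP-1 letters at 25.1%. A −log10 q of 5 or more gave AP-1 letters at 29.6%. The H2A.Z siRNA percentile was 60.4 with equal lists and 71.4 by −log10 p. The cause of these shifts was not tested. At 19 to 30 fragments, a 1.5-fold change is within counting error.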
